A study of Mus musculus with 44 samples.

Results

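The comparison described here sets the hippocampus of 18-month-old mice on the control diet against that of 5-month-old mice on the same diet. It takes 14 of the 44 libraries of the series, 8 of the group 18M-CD and 6 of the group 5M-CD, and every assembled locus with at least 1 FPKM (fragments per kilobase of transcript scaled to the mapped fragments of the library) in at least 6 of these 14 libraries. That rule kept 12281 of the 13218 loci of the table and left out 937. All mice were C57BL/6J, an inbred laboratory strain. The labels give no sex, no genotype other than the strain and no agent other than the diet. CD is read as a control diet and MR as the methionine-restricted diet that the series title names. The other groups used below for their levels are 15M-CD (8 libraries), 18M-MR (7) and 5M-MR (7), and 15M-MR (8) entered the model fit only. The design gives 1 mouse for each library, so the error below is between mice. Of the tested loci, 8476 carry 1 gene symbol, 210 carry 1 symbol with the name of a small RNA, 810 carry several symbols and 2718 carry none. Just inside the filter, the 270 loci with 1 FPKM or more in exactly 6 libraries had a median of 1.28 FPKM over the 14 libraries, and just outside it the 211 loci with exactly 5 such libraries had a median of 1.15 FPKM.

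The hippocampus forms new memories, and it holds the granule cells of the dentate gyrus, the pyramidal cells of the CA fields, interneurons, and the glia that serve them. Neurons answer activity within minutes by transcribing immediate early genes such as Fos and Arc, and many genes in neurons and glia follow the daily and stress-driven level of glucocorticoid hormones. Oligodendrocytes wrap axons in myelin and go on being made in the adult brain, while microglia, the brain's resident macrophages, carry the receptors and complement proteins through which synapses and debris are cleared.

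Depth is unknown, because FPKM hold no read counts, and no counting interval can be given. Libraries are named by group and number. Among the loci tested were 10 of 14 markers of dentate granule cells and 14 of 17 markers of CA pyramidal cells. None of these was at 0 in any of the 14 libraries. The filter asks for 1 FPKM in at least 6 of the same libraries, so it favours markers that are present. It left out 1 further dentate marker that is in the table. Loci without a symbol held 6.41% ± 1.65 of the FPKM sum in 18M-CD (SD, n = 8) and 5.45% ± 1.21 in 5M-CD (SD, n = 6; 2-sided exact permutation p = 0.255). The 2 loci with mitochondrial rRNA held 7.0% ± 3.0 in 18M-CD and 5.85% ± 1.57 in 5M-CD (exact permutation p = 0.423). Loci at 0 numbered 563 to 815 in 18M-CD and 526 to 600 in 5M-CD (exact permutation p = 0.053, adjusted p = 0.265 over 5 measures). Transthyretin RNA (Ttr), which marks choroid plexus, spanned 58.5 to 3620 FPKM in 18M-CD and 31.8 to 4910 FPKM in 5M-CD (exact permutation p = 0.901), with the highest values in 18M-CD 7 and 5M-CD 10. Library 18M-CD 7 stood apart in several ways, with 815 loci at 0, 12.5% mitochondrial rRNA, and the highest summed myelin and lowest summed immediate early FPKM of the 14. Library 18M-CD 8 had the highest share of loci without a symbol, 9.48%. The groups share no sequencing lane: lane 2 carried 7 libraries of 18M-CD and lane 3 the remaining one, while 5M-CD lay on lane 1 with 5 libraries and on lane 4 with 1. Within these 14 libraries age and lane cannot be told apart, and no within-lane value exists.

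In all, 36 of 12281 loci differed at an adjusted p under 0.05 (0.293%; limma's moderated test, Benjamini-Hochberg adjustment), of which 20 were higher in 18M-CD (0.163%) and 16 were lower (0.13%). Differences are 18M-CD minus 5M-CD on the log2(FPKM + 1) scale with the standard error (SE) of the fit. That scale understates the change of loci with low FPKM. The higher loci included genes of oligodendrocytes, microglia and small heat shock proteins, and the lower ones 4 immediate early genes, Sgk1 and both cold-inducible loci. By size the first were a locus without a symbol (1.92) and Neat1 (1.66) among the higher loci, and Tubb5 (−2.24) and Pdhx (−1.87) among the lower. An unadjusted p under 0.05 was reached by 2084 loci (17.0%), the 36 included. The groups did not overlap at 79 loci (0.643%), with 18M-CD above at 37 (0.301%) and below at 42 (0.342%), among them 11 of the 20 higher and 8 of the 16 lower. When 1 library at a time was left out, 8 of the 36 calls held throughout and 28 were lost at least once. The 8 were Cmtm5, C4a/C4b and Olig2 among the higher loci, and Tubb5, Fos, Prdm4, Sgk1 and 1600002K03Rik/Cirbp among the lower. The losses were 28 without 5M-CD 8, 24 without 18M-CD 7, 23 without 5M-CD 6, 22 without 5M-CD 10, 20 without 18M-CD 8, 18 without 5M-CD 4, and 2 to 11 without each of the others. At 35 of the 36, all 8 libraries of 18M-CD lay beyond the mean of 5M-CD. The loci were chosen for this difference, so nothing is read from that count. The median difference over all tested loci was −0.03, and 46.7% of loci were above 0. With quantile normalization 67 loci passed, 46 higher and 21 lower, so 68.7% of the calls were higher, against 55.6% with the values as deposited. With lane as a factor, estimated through the other 4 groups, no locus passed (0 of 12281, with 1311 at an unadjusted p under 0.05). Each of the 20 and of the 16 kept its sign in that fit, with a median of 1.13 and −0.87. The median SE was 0.336 against 0.226 for the higher loci and 0.24 against 0.157 for the lower ones. These loci were chosen for their difference in the same libraries, so nothing is read from the signs or the medians.

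**Figure D1:**
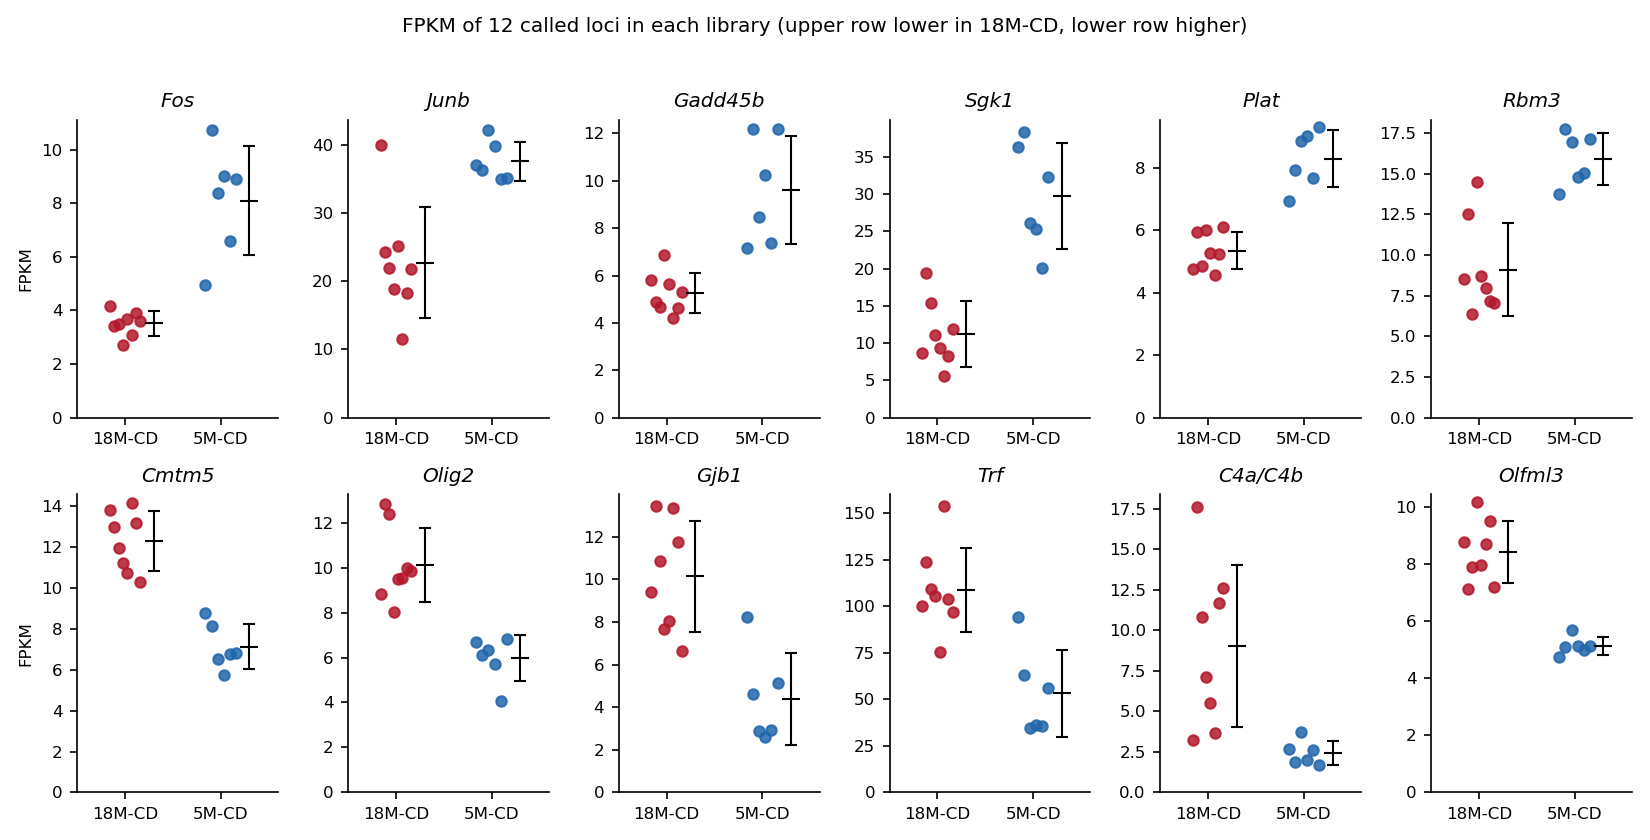
FPKM of 12 called loci in each library, 18M-CD in red on the left and 5M-CD in blue on the right of each panel, with the mean and SD beside the points (n = 8 and 6). The upper panels show loci that were lower in 18M-CD and the lower panels loci that were higher; Fos lay at 2.73 to 4.17 FPKM in 18M-CD, below every library of 5M-CD.

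Among immediate early genes, 4 of 25 tested fell at 18 months, against 0.13% of all loci: Fos, Junb, Gadd45b and Ier2. The list has 32 genes, none rose, and 21 of those tested did not pass. Below 0 lay 18 of the 25 and above 0 lay 7, where 46.7% of all loci lay above 0. The median was −0.52, against −0.03 over all loci. The promoters of called genes from this list that RefSeq holds (GRCm38.p6, 250 bases before to 50 bases after the start of the transcript) are shown because these genes fell. Capitals mark TGACG on either strand in Fos (chr12:85473640-85473939, plus strand) and Junb (chr8:84978699-84978998, minus strand), and CACGTG in Gadd45b (chr10:80929841-80930140, plus strand).
Fos: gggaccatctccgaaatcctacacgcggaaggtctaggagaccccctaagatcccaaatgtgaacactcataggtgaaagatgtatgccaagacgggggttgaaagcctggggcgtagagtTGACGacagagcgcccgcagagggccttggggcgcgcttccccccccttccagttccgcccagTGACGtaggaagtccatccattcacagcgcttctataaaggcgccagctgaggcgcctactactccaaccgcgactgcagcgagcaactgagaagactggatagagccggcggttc
Junb: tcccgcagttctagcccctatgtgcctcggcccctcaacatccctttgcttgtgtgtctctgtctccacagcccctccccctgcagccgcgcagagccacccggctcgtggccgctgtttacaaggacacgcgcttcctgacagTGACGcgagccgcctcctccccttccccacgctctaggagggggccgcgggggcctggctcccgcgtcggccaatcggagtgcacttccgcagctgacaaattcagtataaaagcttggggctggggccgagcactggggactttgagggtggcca
Gadd45b: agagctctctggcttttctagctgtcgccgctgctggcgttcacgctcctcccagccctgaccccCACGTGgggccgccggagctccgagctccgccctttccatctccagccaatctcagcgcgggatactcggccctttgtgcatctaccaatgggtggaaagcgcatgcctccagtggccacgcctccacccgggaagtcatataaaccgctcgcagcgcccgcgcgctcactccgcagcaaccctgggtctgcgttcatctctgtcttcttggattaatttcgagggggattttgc

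TGACG is the core of the cAMP response element TGACGTCA, which contains it, and CACGTG is an E-box. The Fos window holds TGACG at −129 and −66 and the Junb window at −106, counted to the first base of the match from the transcript start at 1. The Gadd45b window holds no TGACG and has its E-box at −185. Of the 25 tested members of the list 20 have a promoter in the table, and 13 of these hold TGACG, against 23.05% of all 27025 genes with a promoter. That share covers genes tested here or not, while the list members passed the FPKM filter, so the sets are unlike. TGACG was also in 5 of the 12 promoters of the glucocorticoid-induced list and in 9 of the 18 of the heat shock and chaperone list. The full element TGACGTCA was in 1 of the 20 (2.03% of all genes) and CACGTG in 5 (8.09%). These are matches of letters, not measured binding.

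Fos, a transcription factor gene of the AP-1 family on chromosome 12 (85473890 to 85477273, plus strand, GENCODE M21 on GRCm38), had its lowest, median and highest value at 2.73, 3.55 and 4.17 FPKM in 18M-CD, and at 4.94, 8.65 and 10.7 FPKM in 5M-CD. Every library of 18M-CD lay below every library of 5M-CD. The difference was −0.98 (SE 0.15, adjusted p = 0.000391), and it stayed past the test without any single library. Junb, which encodes a partner of Fos, lay at 11.5, 21.9 and 39.9 FPKM in 18M-CD and at 34.9, 36.7 and 42.1 FPKM in 5M-CD (lowest, median and highest). The groups overlapped through 18M-CD 1 alone, which reached the level of the young libraries. The difference of Junb was −0.77 (SE 0.159, adjusted p = 0.0187), and the call was lost without 18M-CD 7, 5M-CD 6 or 5M-CD 8.

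Gadd45b, which takes part in activity-dependent DNA demethylation in dentate neurons, lay at 4.2, 5.11 and 6.88 FPKM in 18M-CD and at 7.18, 9.35 and 12.2 FPKM in 5M-CD (−0.74, SE 0.155, adjusted p = 0.0197). Ier2, an early-response nuclear protein gene, lay at 2.59, 3.16 and 4.69 FPKM in 18M-CD and at 5.16, 5.39 and 6.13 FPKM in 5M-CD (−0.59, SE 0.13, adjusted p = 0.0282). In neither gene did the groups overlap.

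The other members of the family did not pass. Arc, whose protein acts at synapses during memory formation, lay at 11.1, 27.2 and 35.7 FPKM in 18M-CD and at 30.8, 47.4 and 66.2 FPKM in 5M-CD (−0.89, SE 0.233, adjusted p = 0.0778). All 8 old libraries were below the young mean of Arc. Nr4a1, an orphan nuclear receptor gene, averaged 9.93 ± 4.34 FPKM in 18M-CD and 16.3 ± 2.14 FPKM in 5M-CD (−0.77, adjusted p = 0.0641). Klf2 (−0.72, adjusted p = 0.0782), Per1 (−0.77, adjusted p = 0.185), Egr1 (−0.55, adjusted p = 0.238) and Dusp1 (−0.57, adjusted p = 0.256) were also below 0. Npas4, an activity-dependent transcription factor gene of neurons, was at 0 in 18M-CD 7 and reached 8.53 FPKM in 18M-CD, against 4.71 to 7.87 FPKM in 5M-CD (−0.67, adjusted p = 0.391). Bdnf, the neurotrophin gene that activity also induces, averaged 4.38 ± 1.35 FPKM in 18M-CD and 4.26 ± 1.56 FPKM in 5M-CD (0.04, SE 0.225, adjusted p = 0.935), with wholly overlapping groups. Ier5 stood highest in the list at 0.37 (adjusted p = 0.556), which rested on 5M-CD 10 at 0.314 FPKM, and without that library it was −0.12.

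Summed over the 25 members, FPKM ran from 171 to 419 with a median of 293 in 18M-CD, and from 324 to 410 with a median of 383 in 5M-CD. Library 18M-CD 7 gave the lowest sum and 18M-CD 1 the highest of all 14. Without 5M-CD 8 the median difference of the members was −0.47 and 1 member passed, and with lane as a factor it was −0.34 and 0 passed. Without 18M-CD 7 it was −0.36 and 1 passed, and without 18M-CD 7 and 8, an alternative chosen after the data were seen, it was −0.32 with 1 passing.

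**Figure D2:**
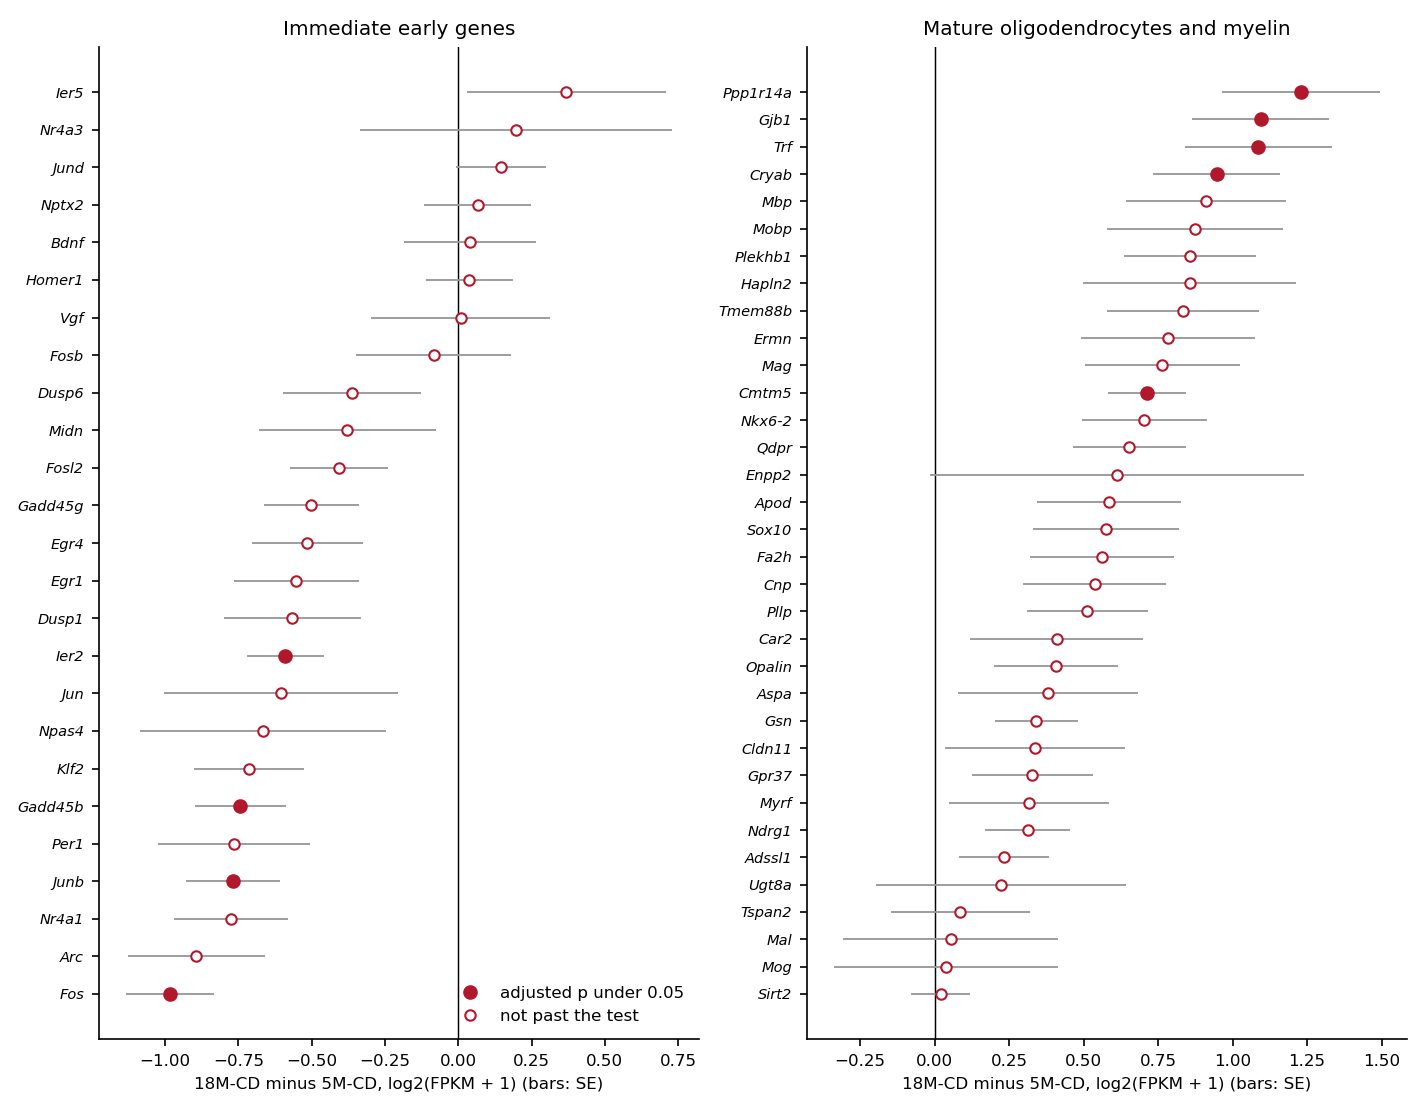
Differences between 18M-CD and 5M-CD with SE on the log2(FPKM + 1) scale for the 25 tested immediate early genes (left) and 34 of the 35 tested genes of mature oligodendrocytes and myelin (right), filled where the adjusted p was under 0.05. The 4 filled immediate early genes lie left of 0 and the 5 filled myelin genes right of it.

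Among genes that glucocorticoids induce, 1 of 13 tested fell, Sgk1, against 0.13% of all loci. The list has 19 genes, none rose and 12 did not pass. Below 0 lay 11 and above 0 lay 2, where 46.7% of all loci lay above 0. The median was −0.45, against −0.03 over all loci. Summed over the members, FPKM had a median of 829.8 in 18M-CD and 842 in 5M-CD. The core of the glucocorticoid response element, ACANNNTGT on either strand, was in 2 of the 12 promoters in the table, against 7.9% of all genes, tested or not. Sgk1, a kinase gene that regulates ion channels and transporters, lies on chromosome 10 (21882184 to 21999903). It stood at 5.63, 10.2 and 19.4 FPKM in 18M-CD and at 20.03, 29.2 and 38.4 FPKM in 5M-CD (lowest, median and highest), a difference of −1.38 (SE 0.262, adjusted p = 0.00816). The groups did not overlap, although the gap between 18M-CD 2 and 5M-CD 9 was small. Sgk1 kept its call without any single library, but not without 18M-CD 7 and 8 together or 18M-CD 7 and 5M-CD 10 together.

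Ddit4, an inhibitor of mTORC1 signalling, lay at 3.16, 4.74 and 8.31 FPKM in 18M-CD and at 5.49, 9.63 and 12.8 FPKM in 5M-CD (−0.83, SE 0.205, adjusted p = 0.0591). Tsc22d3, the glucocorticoid-induced leucine zipper gene, averaged 11.5 ± 1.82 FPKM in 18M-CD and 21.1 ± 6.94 FPKM in 5M-CD (−0.77, adjusted p = 0.131). Cdkn1a, which encodes the cell-cycle inhibitor p21, was at 0, 4.16 and 5.28 FPKM in 18M-CD and at 6.86, 7.45 and 8.49 FPKM in 5M-CD. The groups of Cdkn1a did not overlap, yet its difference of −1.02 (SE 0.29) did not pass (adjusted p = 0.121), and a further locus carries the symbol. Errfi1, a feedback inhibitor of the EGF receptor, likewise had groups apart without passing (−0.46, adjusted p = 0.311). Fkbp5, Mt1 and Mt2 did not pass, at −0.45, 0.12 and −0.10. Of the senescence and p53 list, to which Cdkn1a also belongs, 8 of 18 were tested, none passed and the median was −0.17. Cdkn2a was not among the loci tested.

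Both loci that hold RNA-binding proteins made in the cold fell. Rbm3, on the X chromosome, lay at 6.39, 8.27 and 14.5 FPKM in 18M-CD and at 13.8, 16 and 17.8 FPKM in 5M-CD (−0.78, SE 0.187, adjusted p = 0.04997). One old library, 18M-CD 5, reached the range of the young ones, and the call was lost when any 1 of 12 libraries was left out. The merged locus of 1600002K03Rik/Cirbp, which cannot be assigned to either gene, lay at 9.3, 11.2 and 14.9 FPKM in 18M-CD and at 15.0, 22.2 and 23.4 FPKM in 5M-CD (−0.78, SE 0.139, adjusted p = 0.0045). There the groups touched but did not overlap, and no single library decided the call.

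Plat, the tissue plasminogen activator, a protease released at synapses, lay at 4.58, 5.26 and 6.12 FPKM in 18M-CD and at 6.94, 8.39 and 9.31 FPKM in 5M-CD (−0.55, SE 0.112, adjusted p = 0.0166). Slc6a15, a neutral amino acid transporter of neurons, lay at 3.52, 5.16 and 6.99 FPKM in 18M-CD and at 7.75, 8.37 and 10.3 FPKM in 5M-CD (−0.65, SE 0.154, adjusted p = 0.048). The groups of both genes were apart, and the Slc6a15 call was lost when any 1 of 11 libraries was left out. The locus of Chrm4/Gm39876, which holds the gene of the M4 muscarinic acetylcholine receptor, was at 0, 2.2 and 3.6 FPKM in 18M-CD and at 4.16, 6.4 and 8.5 FPKM in 5M-CD (−1.33, SE 0.265, adjusted p = 0.0121). It too had no overlap, with 18M-CD 3 at 0. Dyrk2, a protein kinase gene (−0.48, adjusted p = 0.0457), and Ssx2ip, a gene of a centrosome and cell-junction protein (−0.52, adjusted p = 0.0319), fell with slightly overlapping groups. Leaving out any 1 of 10 libraries lost the Dyrk2 call, and any 1 of 7 the Ssx2ip call.

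Prdm4, a zinc-finger transcription factor gene, was uneven among the old mice, at 0.834 to 1.31 FPKM in 5 of the 8 libraries of 18M-CD, at 2.31 FPKM in 18M-CD 7, and at 4.21 and 4.96 FPKM in 18M-CD 2 and 9, against 4.24 to 5.92 FPKM in 5M-CD (−1.21, SE 0.21, adjusted p = 0.00363). The called locus of Pdhx, a subunit gene of the pyruvate dehydrogenase complex, was at 0 to 0.502 FPKM in 7 old libraries and 3.17 FPKM in 18M-CD 5, against 2.97 to 5.21 FPKM in 5M-CD (−1.87, SE 0.423, adjusted p = 0.0319). A second Pdhx locus did not differ past the test (−0.28, adjusted p = 0.287), so the gene is uncertain, and the call was lost when any 1 of 8 libraries was left out. Tubb5, a beta-tubulin gene, had the difference of greatest size at 1 of its 3 tested loci (−2.24, SE 0.326, adjusted p = 0.000271). That locus lay at 6.97 to 9.97 FPKM in 18M-CD, at 8.91 FPKM in 5M-CD 9, and at 56.8 to 64.9 FPKM in the other 5 libraries of 5M-CD. Those 5 were sequenced on lane 1 and 5M-CD 9 on lane 4. The 3 MR libraries on lane 1 were low, at 11.79 FPKM in 18M-MR 2 and at 11.04 and 17.74 FPKM in 5M-MR 2 and 4. The other high values, 56.2 and 48.6 FPKM, came from 18M-MR 4 and 8 on lane 3, and 15M-CD was at 6.34 to 9.73 FPKM. The most abundant Tubb5 locus differed by −0.13 (adjusted p = 0.529).

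Among genes of oligodendrocytes and myelin, 5 of 35 tested rose at 18 months, against 0.163% of all loci: Cmtm5, Gjb1, Ppp1r14a, Cryab and Trf. The list has 38 genes, none fell, and 30 of those tested did not pass. All 35 lay above 0, with a median of 0.57 against −0.03 over all loci, where 46.7% of loci lay above 0. In whole tissue, more cells of a type and more RNA per cell cannot be told apart. Summed over the 35 members, FPKM ran from 1874 to 4139 with a median of 2141 in 18M-CD, and from 1030 to 1875 with a median of 1506 in 5M-CD. The 2 ranges met at a single point, 18M-CD 9 and 5M-CD 2, and 18M-CD 7 stood well above the rest. With 18M-CD 7 and 8 left out, the median was 0.48 with 35 above 0 and 1 past the test.

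Cmtm5, a membrane protein gene of oligodendrocytes on chromosome 14 (54936261 to 54939274), lay at 10.3, 12.5 and 14.2 FPKM in 18M-CD and at 5.73, 6.8 and 8.77 FPKM in 5M-CD, with no overlap (0.71, SE 0.13, adjusted p = 0.00559). It kept its call without any single library. Gjb1, the connexin 32 gene of myelin gap junctions, lay at 6.65, 10.1 and 13.4 FPKM in 18M-CD and at 2.58, 3.77 and 8.25 FPKM in 5M-CD (1.10, SE 0.23, adjusted p = 0.0199). Only 5M-CD 2 reached the old range of Gjb1. Ppp1r14a, an inhibitor of myosin phosphatase found in oligodendrocytes, lay at 27.0, 45.1 and 84.0 FPKM in 18M-CD and at 11.7, 20.4 and 25.7 FPKM in 5M-CD (1.23, SE 0.265, adjusted p = 0.0268). Its groups were apart, and its 2 highest values came from 18M-CD 7 and 8.

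Trf, the iron carrier transferrin that oligodendrocytes make in the brain, lay at 75.6, 105 and 154 FPKM in 18M-CD and at 34.7, 46.1 and 94.3 FPKM in 5M-CD (1.09, SE 0.246, adjusted p = 0.0319). Cryab, a small heat shock protein gene abundant in oligodendrocytes, lay at 69.4, 95.2 and 162 FPKM in 18M-CD and at 36.6, 46.7 and 63.7 FPKM in 5M-CD (0.95, SE 0.214, adjusted p = 0.0319). Cryab separated the groups fully and Trf did not, since 5M-CD 2 reached the old range. Each call was lost when any 1 of 7 libraries was left out.

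Structural myelin genes lay above 0 but did not pass. Mbp, myelin basic protein, lay at 541, 646 and 1336 FPKM in 18M-CD and at 254, 405 and 531 FPKM in 5M-CD (0.91, SE 0.268, adjusted p = 0.128). Mobp averaged 265 ± 99.4 FPKM in 18M-CD and 141 ± 32.8 FPKM in 5M-CD (0.87, adjusted p = 0.185). Mag, a myelin-associated glycoprotein gene, averaged 36.1 ± 12 FPKM in 18M-CD and 23.4 ± 16.4 FPKM in 5M-CD (0.76, adjusted p = 0.185). The groups of Mbp and Mobp did not overlap, and those of Mag did. Plekhb1 (0.86, adjusted p = 0.0718) and Cnp (0.54, adjusted p = 0.266) lay above 0. Mal, Mog (whose symbol stands on 3 loci) and Sirt2 were nearest to 0, at 0.05, 0.04 and 0.02, and each was below 0 with lane as a factor, at −0.26, −0.44 and −0.01.

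Earlier stages of the lineage were less uniform. Of 18 genes of precursors and newly formed oligodendrocytes 11 were tested, 1 rose, none fell, 6 lay above 0 and 5 below, with a median of 0.36. Over all loci 0.163% rose and 46.7% lay above 0. The one that rose was Olig2, a transcription factor gene of the whole lineage on chromosome 16 (91225457 to 91228677). Olig2 lay at 8.04, 9.69 and 12.8 FPKM in 18M-CD and at 4.06, 6.24 and 6.84 FPKM in 5M-CD, groups apart (0.68, SE 0.133, adjusted p = 0.0114), and kept its call without any single library. Its neighbour Olig1 (0.48, adjusted p = 0.181), Sox10 (0.57, adjusted p = 0.259) and Bcas1 (1.09, SE 0.471, adjusted p = 0.261) did not pass.

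A further 2 called loci, a long noncoding RNA and the gene of a membrane protein, are known from glia among other cells. Neat1, the noncoding RNA that builds nuclear paraspeckles, on chromosome 19 (5824708 to 5845478), lay at 29.2, 67.6 and 141 FPKM in 18M-CD and at 10.2, 19.9 and 46.8 FPKM in 5M-CD (1.66, SE 0.385, adjusted p = 0.04). Library 5M-CD 2 lay above 3 of the old libraries, and the Neat1 call was lost when any 1 of 9 libraries was left out. Tmem63a, a mechanically gated channel gene whose human counterpart is needed for normal myelination, lay at 3.81, 7.13 and 12.3 FPKM in 18M-CD and at 0.445, 2.96 and 4.21 FPKM in 5M-CD (1.16, SE 0.277, adjusted p = 0.04997). The ranges of Tmem63a overlapped slightly, and its call was lost when any 1 of 9 libraries was left out.

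**Figure D3:**
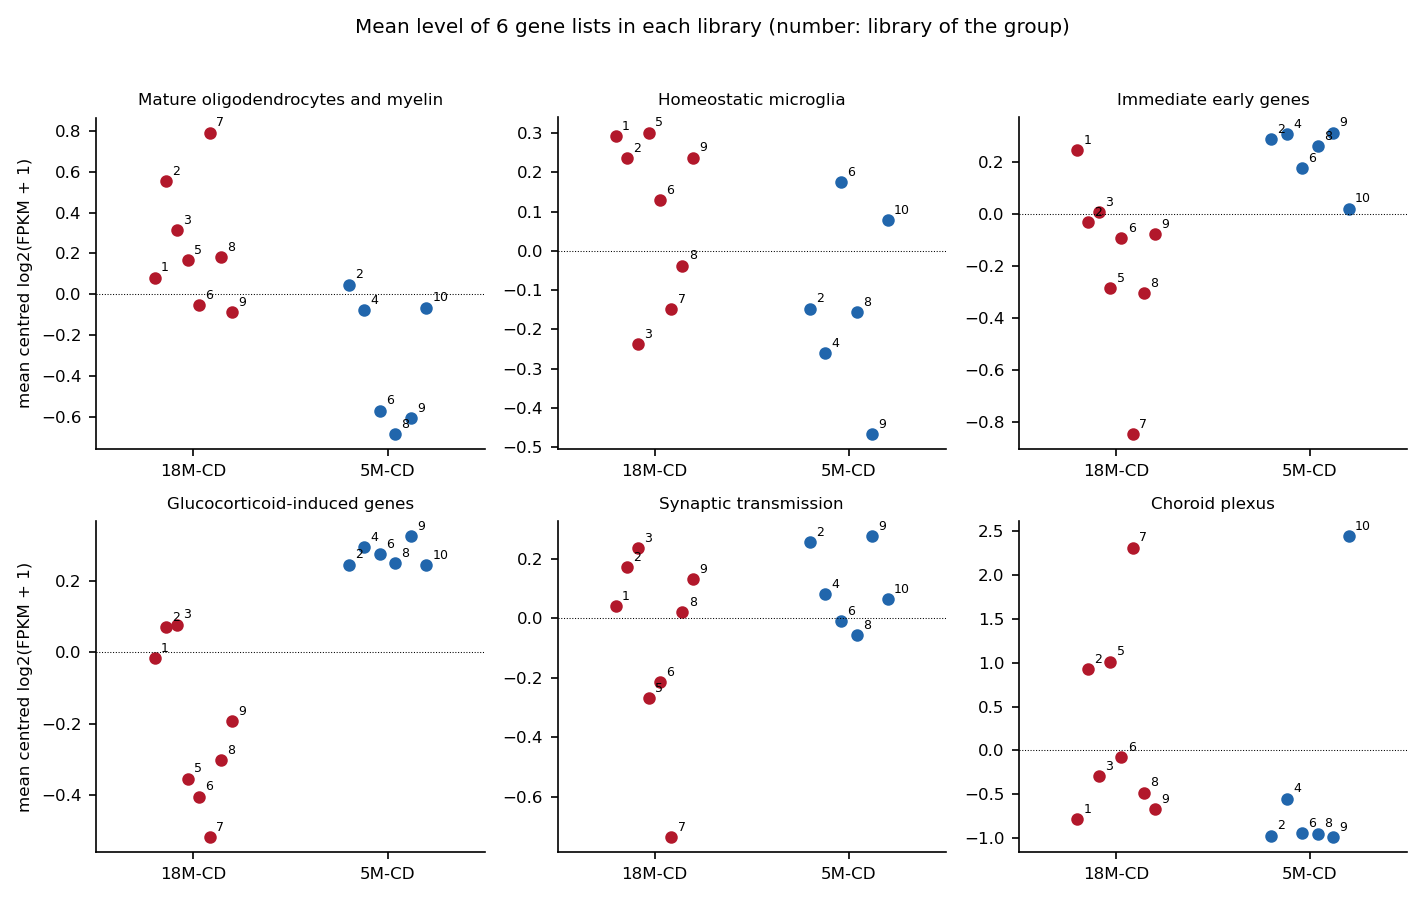
Mean centred log2(FPKM + 1) of the tested members of 6 gene lists in each library, 18M-CD in red on the left and 5M-CD in blue on the right, with the library's number beside its point. Library 18M-CD 7 is highest for myelin and lowest for the immediate early and synaptic lists, and 5M-CD 10 and 18M-CD 7 are highest for the choroid plexus list.

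Among immune genes, the complement locus and 3 genes of microglia rose. The locus of C4a/C4b, which holds the complement component 4 genes and cannot be assigned to either, lay at 3.27, 8.97 and 17.6 FPKM in 18M-CD and at 1.71, 2.31 and 3.71 FPKM in 5M-CD (1.40, SE 0.26, adjusted p = 0.00608). The old libraries spread widely, and 18M-CD 1 and 7 lay within the young range. A further 2 tested loci carry the same symbols and did not pass, at 0.95 (adjusted p = 0.128) and −0.19 (adjusted p = 0.924), so the level of the pair is uncertain. Of 20 genes of complement and MHC class I 7 were tested and none passed. All 7 lay above 0, against 46.7% of all loci, with a median of 0.42. They included C1qa at 53.3 ± 8.63 FPKM in 18M-CD and 38.4 ± 4.65 FPKM in 5M-CD (0.45, adjusted p = 0.223), C1qb (0.42, adjusted p = 0.255), B2m (0.28) and H2-D1 (0.56, adjusted p = 0.127), of which H2-D1 stands on 3 loci.

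Olfml3, a gene that microglia express at rest, lay at 7.11, 8.33 and 10.2 FPKM in 18M-CD and at 4.74, 5.1 and 5.69 FPKM in 5M-CD (0.61, SE 0.133, adjusted p = 0.0268). Cyba, the p22phox subunit of the phagocyte NADPH oxidase, lay at 10.2, 13.7 and 19.8 FPKM in 18M-CD and at 7.21, 7.67 and 9.33 FPKM in 5M-CD (0.71, SE 0.159, adjusted p = 0.0319). Neither gene had overlapping groups. Leaving out any 1 of 5 libraries lost the Olfml3 call, and any 1 of 7 the Cyba call. Fcer1g, the signalling chain of Fc receptors, lay at 18.0, 20.9 and 26.2 FPKM in 18M-CD and at 12.4, 13.2 and 19.4 FPKM in 5M-CD (0.58, SE 0.138, adjusted p = 0.04997). Only 5M-CD 6 reached the old range of Fcer1g, and the call was lost when any 1 of 11 libraries was left out. Of 20 genes of homeostatic microglia 15 were tested, 1 rose (Olfml3) and 12 lay above 0, with a median of 0.33, and Tmem119, a defining marker, did not pass (0.43, adjusted p = 0.128). Of 30 genes of disease-associated microglia and phagocytes 20 were tested, 1 rose (Cyba) and 15 lay above 0, with a median of 0.27. Among them Ctsz (0.47, adjusted p = 0.103) and Cd52 (0.70, adjusted p = 0.164) did not pass. For both lists, the shares over all loci were 0.163% higher and 46.7% above 0.

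Calcium-binding proteins of the annexin and S100 families lay mostly above 0. Of 16 genes 12 were tested, 2 rose, none fell and 10 lay above 0, with a median of 0.42. Over all loci 0.163% rose and 46.7% lay above 0. Anxa5, whose protein binds exposed phosphatidylserine, lay at 15.9, 18.1 and 24.1 FPKM in 18M-CD and at 9.52, 12.7 and 14.6 FPKM in 5M-CD, groups apart (0.56, SE 0.123, adjusted p = 0.0268). S100a6, a small calcium-binding protein gene, lay at 9.71, 17.1 and 25.0 FPKM in 18M-CD and at 8.38, 9.91 and 10.8 FPKM in 5M-CD (0.69, SE 0.155, adjusted p = 0.0319). Only 18M-CD 3 lay within the young range of S100a6, and the call was lost when any 1 of 8 libraries was left out. S100b, an astrocyte gene, was at 38.7 to 102 FPKM in 18M-CD and at 26.5 to 37.9 FPKM in 5M-CD, with no overlap (0.65, adjusted p = 0.0593). Anxa2 (0.53, adjusted p = 0.153) and S100a16 (0.41, adjusted p = 0.179) did not pass.

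Astrocyte genes as a list did not move in 1 direction: 15 of 18 were tested, none passed, 7 lay above 0 and the median was −0.12. Gfap, the intermediate filament gene of astrocytes, lay at 50.8, 74.5 and 88.6 FPKM in 18M-CD and at 33.3, 47.1 and 65.9 FPKM in 5M-CD. All 8 old libraries lay above the young mean of Gfap, and the difference of 0.61 (SE 0.148) fell just short of the test (adjusted p = 0.0517). Of 18 genes of reactive astrocytes 4 were tested, the median was 0.49, S100a6 rose, and Lcn2 lay below 0 (−1.30, SE 0.504, adjusted p = 0.24).

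Among heat shock proteins and chaperones, 3 of 23 tested rose: the small heat shock proteins Cryab and Hspb1, and Fkbp2. Cryab is also counted among the myelin genes above. The list has 28 genes, none fell, and 17 of those tested lay above 0 and 6 below, with a median of 0.18. Over all loci 0.163% rose and 46.7% lay above 0. The promoter of Hspb1 (RefSeq, GRCm38.p6, chr5:135887669-135887968, plus strand) is shown with the core of the heat shock element, GAANNTTC, in capitals at −117 and −97. The motif reads the same on both strands.
Hspb1: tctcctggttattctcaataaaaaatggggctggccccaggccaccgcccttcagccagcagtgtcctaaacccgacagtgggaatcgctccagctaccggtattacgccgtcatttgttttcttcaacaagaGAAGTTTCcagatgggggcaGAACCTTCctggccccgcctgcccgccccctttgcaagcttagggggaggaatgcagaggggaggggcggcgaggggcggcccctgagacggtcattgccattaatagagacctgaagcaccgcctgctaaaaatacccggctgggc

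Of the 23 tested members 18 have a promoter in the table, and 8 of these hold GAANNTTC, against 9.04% of all genes with a promoter. That share too covers genes tested here or not, so the sets are unlike. Hspb1 lay at 8.32, 10.5 and 13.9 FPKM in 18M-CD and at 4.2, 4.67 and 7.33 FPKM in 5M-CD (0.93, SE 0.222, adjusted p = 0.048). Fkbp2, a peptidyl-prolyl isomerase of the endoplasmic reticulum, lay at 37.9, 43.9 and 54.1 FPKM in 18M-CD and at 29.3, 33.3 and 35.6 FPKM in 5M-CD (0.45, SE 0.0986, adjusted p = 0.0268). The groups were apart for both, and the Hspb1 call was lost when any 1 of 10 libraries was left out. The calcium-binding chaperone gene Calr (0.49, adjusted p = 0.059) and the co-chaperone gene Sdf2l1 (0.77, adjusted p = 0.0833) did not pass.

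Iron and oxidative stress genes lay on both sides of 0. Of the iron list 8 of 15 genes were tested, with a median of −0.17, and Trf alone rose. Fth1, the heavy chain of ferritin, was at 2892 to 4738 FPKM in 18M-CD and at 1890 to 2778 FPKM in 5M-CD, without overlap and without passing (0.66, adjusted p = 0.0929). Tfrc, the transferrin receptor, lay below 0 (−0.63, adjusted p = 0.128), as did Gclc, which makes glutathione (−0.54, adjusted p = 0.0845). Of 20 genes of NRF2 targets and oxidative stress 14 were tested, and Cyba alone rose, with a median of 0.02.

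The remaining called loci have no single gene behind them. The locus of Gm21992/Rbm14/Rbm4, which holds 2 genes of RNA-binding proteins, lay at 2.32, 5.07 and 5.67 FPKM in 18M-CD and at 0.206, 0.72 and 3.1 FPKM in 5M-CD (1.58, SE 0.346, adjusted p = 0.0268). Library 5M-CD 10 was within the old range, and the call was lost when any 1 of 7 libraries was left out. Another 3 higher loci carry no symbol, with differences of 1.26, 1.48 and 1.92, and 1 lower locus carries only a predicted name. By the longest transcript that GENCODE M21 gives for each gene, the higher genes were shorter than the lower ones. The median was 1526 bases for the 15 higher genes with a known length and 2792 bases for the 13 lower ones. Over 8373 tested loci with 1 symbol it was 3282 bases. The lengths of the transcripts expressed here are not known. Under 1000 bases were 5 of the 15, none of the 13 and 7.52% of all. The part of transcript length in the differences was not tested.

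Neuronal lists held no called gene under their own symbol. Of all tested loci 0.293% were called, 46.7% lay above 0 and the median was −0.03. With so small a share called, nothing is read from the absence of calls in these lists. Of 44 genes of synaptic transmission 40 were tested, none passed and 31 lay below 0, with a median of −0.19; Syt1, the calcium sensor of vesicle release, had the smallest p (−0.54, adjusted p = 0.132). Dentate granule cell markers had 9 of 10 tested members below 0 and a median of −0.29, with Calb1 at −0.63 (adjusted p = 0.243). CA pyramidal markers had 11 of 14 below 0 and a median of −0.23, and GABAergic interneuron markers 12 of 17 and −0.18. For adult neurogenesis 12 of 23 genes were tested, 8 lay below 0 and the median was −0.23, with Neurod1 at −0.59 (adjusted p = 0.199). Library 18M-CD 7 gave the lowest mean level of the synaptic list; without it the median was −0.07, with 27 of 40 members below 0.

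In the lists of other tissues and pathways Plat alone passed. The same shares over all loci apply, with 46.7% above 0 and a median of −0.03. Choroid plexus markers (5 of 15 tested, median 0.52) followed the libraries with high Ttr, and endothelium and pericytes had 9 of 20 tested and a median of 0.11, with Slco1a4, a transporter of the blood-brain barrier, at −0.67 without overlap (adjusted p = 0.223). Ependyma (7 of 11), meninges (8 of 14) and blood (1 of 8) had medians of 0.07, 0.01 and 0.08. The circadian clock list had 11 of 16 tested genes below 0 and a median of −0.33, led after Per1 by Cry1 (−0.51, adjusted p = 0.199). Of the extracellular matrix 16 of 28 were tested with a median of −0.29, Plat fell, and Ncan, a proteoglycan of perineuronal nets, lay at −0.77 with groups apart (adjusted p = 0.178). Library 18M-CD 8 held Ncan at 0.955 FPKM, against 7.15 to 14.7 FPKM in the other libraries of 18M-CD. Cholesterol synthesis had 15 of 18 below 0 (median −0.14). The proteasome had 20 of 24 below 0 (−0.18), the ATF4 targets 9 of 16 (−0.05), and the lysosome 12 of 24 (median 0.03). Interferon response had 4 of 27 genes tested, all 4 above 0, with a median of 0.37. Tubulins (5 of 13 tested, counted by their most abundant locus) had a median of −0.11, and neurotrophins and growth factor receptors (14 of 23) 0.04. Fgfr1, a receptor of FGF21, averaged 7.95 ± 2.64 FPKM in 18M-CD and 8.03 ± 2.28 FPKM in 5M-CD (−0.03, SE 0.16, adjusted p = 0.929). Its co-receptor Klb was not among the loci tested.

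**Figure D4:**
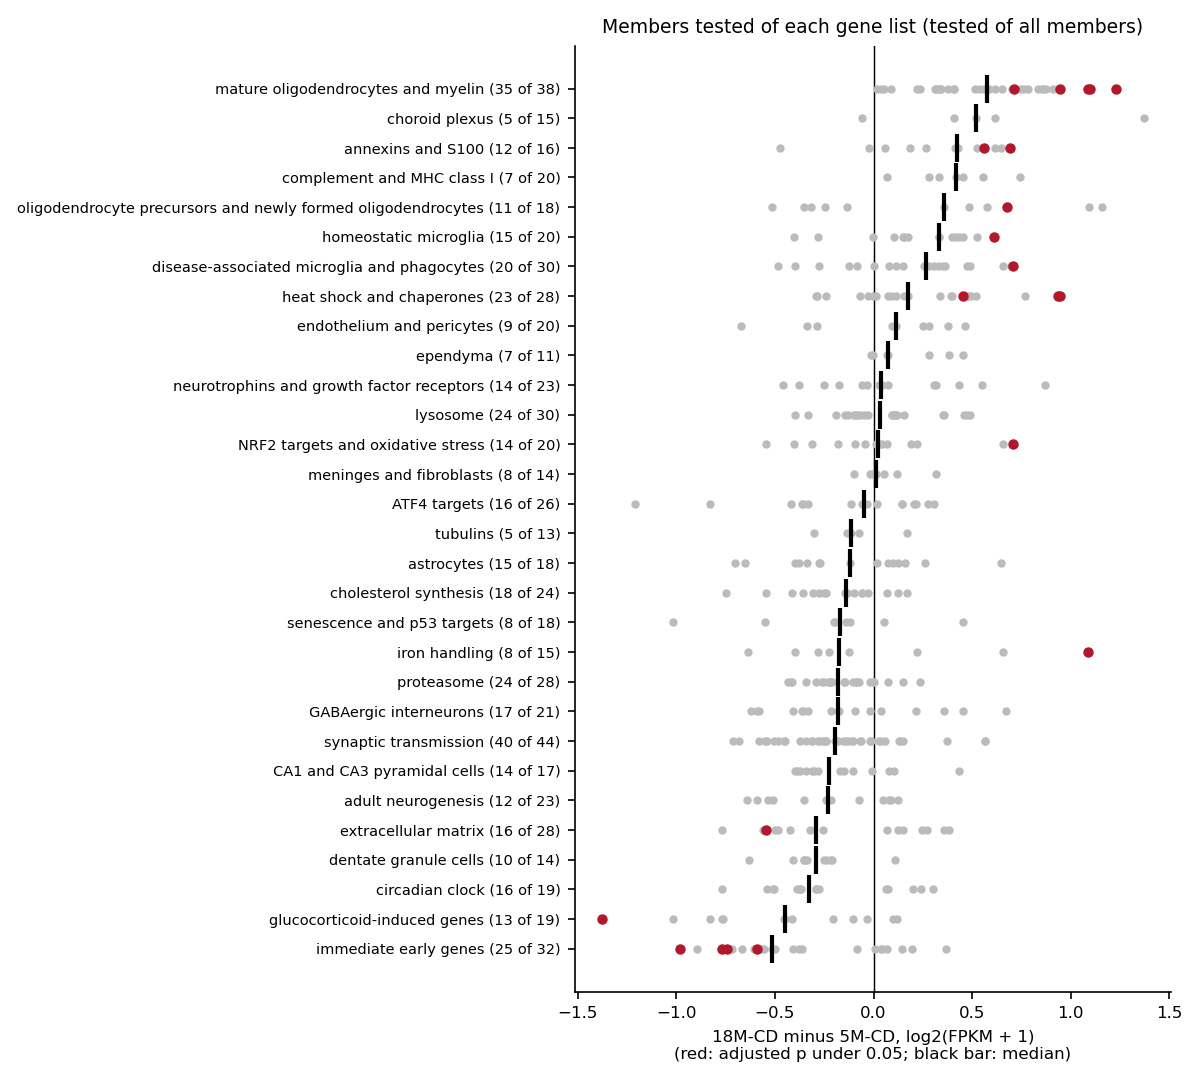
Differences between 18M-CD and 5M-CD on the log2(FPKM + 1) scale for the tested members of the gene lists with at least 5 of them, red where the adjusted p was under 0.05, with the list's median as a black bar. Myelin stands at the top with a median of 0.57 and immediate early genes at the bottom with −0.52.

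The mean of 15M-CD lay between those of 18M-CD and 5M-CD for 19 of the 20 higher loci and 12 of the 16 lower ones, against 48.4% of all tested loci. The called loci were chosen for the distance between these ages, so nothing is read from the counts. Cmtm5 averaged 7.13 FPKM in 5M-CD, 10.3 FPKM in 15M-CD and 12.3 FPKM in 18M-CD, and Sgk1 29.7, 15.9 and 11.2 FPKM at the same ages. Fos was at 8.09 FPKM in 5M-CD, 3.69 FPKM in 15M-CD and 3.51 FPKM in 18M-CD. Olfml3 was the higher locus outside the range, at 8.95 FPKM in 15M-CD. These are levels only, with no test of the steps.

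**Figure D5:**
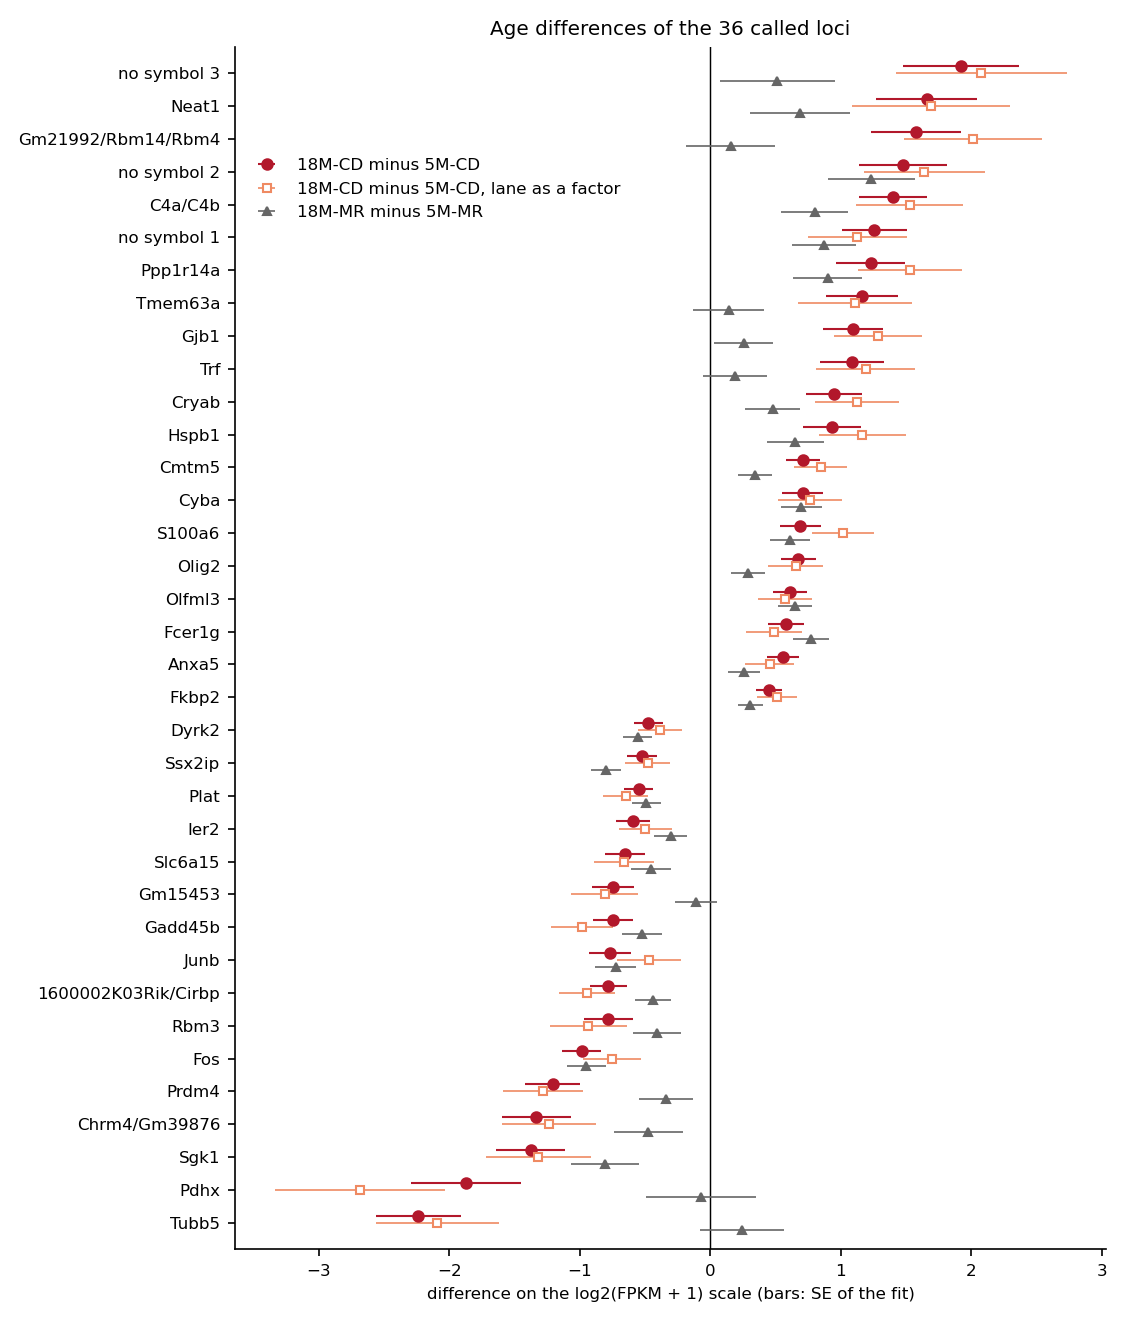
Differences with SE on the log2(FPKM + 1) scale at the 36 called loci: 18M-CD minus 5M-CD (filled circles), the same with lane as a factor (open squares) and 18M-MR minus 5M-MR (triangles). The first 2 kinds of point share a sign at every locus, and the MR points share it at all but Tubb5. The loci were chosen by the filled circles.

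The same ages under the MR diet share no library with this comparison. There 3699 loci passed (30.1%), 1901 higher (15.5%) and 1798 lower (14.6%). Lane and library measures also differed there. Lane 3 carried 6 libraries of 18M-MR and lane 1 carried 1, while 5M-MR lay on lane 2 with 5 and on lane 1 with 2. Loci at 0 numbered 577 to 967 in 18M-MR and 485 to 578 in 5M-MR, and mitochondrial rRNA reached 11.5% and 5.53%. The fit behind these counts had no term for lane or for these measures, and their part was not tested. Of the loci called in the control diet, 20 of 20 higher and 15 of 16 lower had the same sign under MR, where 11 and 9 passed as well. The share of all tested loci with the same sign in both diets is not given here, so nothing is read from the signs. Their median differences were 0.56 and −0.46 under MR, against 1.02 and −0.77 in the control diet, values chosen for being large in the control diet. Fos differed by −0.95 under MR (adjusted p = 0.000441), Junb by −0.73, Olfml3 by 0.65 and Cyba by 0.70. Gjb1, Trf and Tmem63a differed by 0.26, 0.19 and 0.14 under MR, and none of these passed.

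A test of the difference between the 2 age effects passed at 1 locus, the called one of Tubb5 (0.00814% of loci; −2.48, adjusted p = 0.0331), and 863 loci had an unadjusted p under 0.05 (7.03%). For the other 35 called loci its adjusted p ran from 0.663 to 0.996. Over the 35 myelin genes the median was 0.10 under MR, against 0.57 in the control diet, with 4 passing under MR, and the smallest adjusted p for a difference between the diets was 0.623. The annexin and S100 genes had a median of 0.45 under MR and 8 higher, and the immediate early genes −0.52 and 10 lower.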

How the data were processed

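RNA of 44 mouse hippocampi was sequenced on a BGI-500. The authors deposited 1 table of FPKM for assembled loci. The submitters' processing notes name Trimmomatic 0.38, HISAT2, StringTie 1.3.4d and the build GRCm38.p6, with no order or role; the HISAT2 version is not given in the sources used here. FPKM hold no read counts, so depth is unknown and no count test was run.

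Loci that reached 1 FPKM in 6 or more of the 14 were tested on log2(FPKM + 1) with limma 3.58.1 in R 4.3.3. All 44 libraries entered with 6 group means, which left 38 residual degrees of freedom, and the variance prior followed the mean level. The 2-sided p-values were adjusted by Benjamini-Hochberg over 12281 loci at 0.05. The 5 library measures had exact permutation tests, adjusted over the 5. Tables and figures were made with Python 3.11.15, NumPy 2.4.6, pandas 2.3.3 and matplotlib 3.10.9. Gene positions come from GENCODE M21 on GRCm38, and promoters from RefSeq, which held 21 of the 29 called loci with 1 symbol. On simulated data with 200 changed loci of 12281, the fit recovered 62% of effects of 1 and 9% of effects of 0.5. These effects are on the log2 scale. Both sizes were set in the same simulation, which gave 4 false calls in all. Whether these rates hold for the 14 libraries, where age goes with lane and some libraries stand apart, was not tested.

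The text names up to 20 called loci with a symbol in each direction and passes over loci that carry only predicted names. It names up to 6 members of each of 34 gene lists by unadjusted p, with any tested member allowed for myelin, immediate early, glucocorticoid-induced and complement genes, and Gfap, Mbp, Bdnf, Arc, Ttr, Cdkn1a, Cdkn2a, Fgfr1 and Klb in any case. Comparison, members and lists were chosen with earlier results of these data known. A symbol on several loci was counted by its most abundant one, and list members that sit only in merged loci were not matched. Some genes stand in several lists, Cryab, Trf, Cyba and S100a6 among them, so the lists are not independent. A few tested genes are not reported here by name.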

Additional observations from a re-analysis of the deposited data

Results flagged for a closer look

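Of 178 groups of library values checked, 21 had 1 library far from the others of its group, where chance gives about 1 in 20. Library 18M-CD 7 was the distant one for Mobp (485 FPKM), the third locus without a symbol (46.2 FPKM) and Ttr (3620 FPKM), which also stood out at 4910 FPKM in 5M-CD 10. Library 18M-CD 1 stood apart for Egr1 at 56.8 FPKM, C1qb at 53.5 FPKM and the Gm21992/Rbm14/Rbm4 locus at 2.32 FPKM, and 18M-CD 5 for Pdhx at 3.17 FPKM.

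Among the young libraries, 5M-CD 10 stood apart for the Gm21992/Rbm14/Rbm4 locus (3.1 FPKM), Mog (8.05 FPKM), H2-D1 (8.09 FPKM), Ier5 (0.314 FPKM) and Sdf2l1 (5.7 FPKM). Library 5M-CD 2 did so for Sox10 (23.8 FPKM), S100b (26.5 FPKM), Ncan (22.8 FPKM) and the predicted gene Gm15453 (8.37 FPKM). Library 5M-CD 9 was low for Tubb5 (8.91 FPKM) and Syt1 (117 FPKM), 5M-CD 6 was high for Fcer1g (19.4 FPKM), and 5M-CD 4 was high for Dusp1 (5.16 FPKM).

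The age difference of the called Tubb5 locus was −2.24 in the control diet and 0.25 under MR, and the difference between them was −2.48 by limma's interaction contrast (adjusted p = 0.0331). In 18M-MR that locus ran from 6.15 to 56.2 FPKM and in 5M-MR from 11.04 to 17.7 FPKM.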

How the results depend on the processing

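Of the 36 calls, 3 higher and 5 lower ones held without every single library. The count was 33, 30 and 47 with a pseudocount of 0.1, no filter and a filter of 5 FPKM. It was 67 with quantile normalization, 0 with lane as a factor, 1987 with array weights and 13 in the 14 libraries alone. Leaving out 1 library gave 8 to 51 calls: 13 without 18M-CD 7, 16 without 18M-CD 8, 19 without 5M-CD 4, 13 without 5M-CD 6, 8 without 5M-CD 8 and 16 without 5M-CD 10. In alternatives chosen after the data were seen, leaving out 18M-CD 7 and 8 gave 7 calls, and dropping 18M-CD 7 together with 5M-CD 10 gave 9. Averaged over both diets with lane as a factor 4955 passed. The single locus that differed between the diets became 3 with lane, 23 with array weights, 0 to 1 without 1 library, and 0 in both added alternatives. The cause of these shifts was not tested.

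With a replicate block 9 loci passed for age and 0 for the difference between the diets. The correlations of same-numbered libraries were 0.159, 0.107, −0.209 and −0.157, so the numbers were not taken as pairs.

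The excess of loci at 0 was 76.5 on average and 51 to 87 without 1 library, and passed at 45 for medians (exact permutation p = 0.0446) and without 18M-CD 1 (p = 0.0373), 18M-CD 3 (p = 0.0309), 18M-CD 9 (p = 0.028) or 5M-CD 6 (p = 0.0497), all before adjustment. The Ttr difference of −77.2 FPKM reversed to 139.5 for medians and ran from −481 to 730.4 without 1 library. Genes near 0 changed sign, and their ranges without 1 library spanned 0. Bdnf was −0.031 with quantile normalization, −0.0023 with the replicate block and −0.064 to 0.162 without 1 library. Mog was −0.062 with a pseudocount of 0.1, −0.44 with lane and −0.081 to 0.282 without 1 library. Mal was −0.26 with lane, −0.040 with array weights and −0.14 to 0.16 without 1 library. Sirt2 was −0.0058 with lane and −0.016 to 0.069 without 1 library. Fgfr1 was 0.018 with quantile normalization, 0.19 with array weights, 0.081 and 0.084 in the first and second added alternative, and −0.132 to 0.078 without 1 library. Ier5 was −0.12 without 5M-CD 10, up to 0.516 without another library, and −0.011 in the second added alternative. Depth is unknown, and age and lane cannot be told apart within the 14 libraries.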
